A study of Mus musculus with 24 samples.

Results

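Metallothioneins are small, cysteine-rich proteins that bind zinc and copper, and they are described here with the genes that sense and move zinc. The genes were Mt1 and Mt2, which encode the 2 widely expressed metallothioneins, Mtf1, which encodes the zinc-sensing transcription factor MTF1, and the zinc transporter genes Slc30a1 and Slc39a10. They were chosen by name, with Mt1 selected on its rise with fiber dose in these same libraries. Of the 5 listed genes, 4 had a row among the 14557 gene symbols of the deposited table, and all 4 passed the filter on low counts. Slc30a1, the exporter at the cell surface, has no row and is not analysed here. For each gene the values are those of a single transcript, the one whose count averaged highest over the 12 epithelial libraries.

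When zinc rises in a cell, MTF1 binds short metal response elements in promoters and switches on the metallothionein genes and Slc30a1. Transporters of the Slc30 family (ZnT) move zinc out of the cytosol, and those of the Slc39 family (ZIP) move it in. Slc39a10 is a ZIP importer of the plasma membrane whose transcription MTF1 is known to restrain. Metallothioneins also respond to copper, cadmium, glucocorticoids, oxidative stress and inflammatory cytokines, and in lung epithelium they are known to be induced by inhaled metals such as cadmium.

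The study addressed what nylon 6,6 microfibers do to mouse lung organoids. In 6-well plates, 200000 EpCAM-positive primary lung cells of wild-type female C57BL6 mice were grown in Matrigel with 200000 CCL206 cells, an established line of lung fibroblasts (male, strain ddY). Wells held no fibers (control), 12000 fibers or 30000 fibers of 12 by 31 micrometers, mixed into the gel, and every group, control included, contained the fibroblast line. On day 7 beads against EpCAM, an epithelial surface protein, separated the epithelial fraction, and 300 ng of its RNA was sequenced. Each of the 3 groups had 4 epithelial libraries, from the same mice 1 to 4. The SDs below are spreads between cell isolations from 4 mice. The SEs come from a fit of all 12 libraries by dose group, without a term for the mouse.

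Whether metal response elements took part in any change described here was not tested. The promoters of both metallothionein genes and of Slc39a10 are shown. Each is the 300-base window from 250 bases before to 50 bases after the RefSeq gene start (GRCm38.p6, the assembly of mm10), written 5′ to 3′ on the strand of the gene. Capitals mark matches to the core of the metal response element, TGCGCNC or TGCACNC, searched on both strands. No matches overlapped. The windows are chr8:94178839-94179138 (plus strand) for Mt1, chr8:94172368-94172667 (plus strand) for Mt2 and chr1:46853569-46853868 (minus strand) for Slc39a10.
Mt1: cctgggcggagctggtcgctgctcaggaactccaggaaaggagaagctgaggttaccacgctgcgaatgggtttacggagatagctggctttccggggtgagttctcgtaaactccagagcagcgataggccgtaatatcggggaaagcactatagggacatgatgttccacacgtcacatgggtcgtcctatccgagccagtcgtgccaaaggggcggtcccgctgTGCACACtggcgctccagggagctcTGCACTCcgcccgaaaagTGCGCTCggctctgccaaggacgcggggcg
Mt2: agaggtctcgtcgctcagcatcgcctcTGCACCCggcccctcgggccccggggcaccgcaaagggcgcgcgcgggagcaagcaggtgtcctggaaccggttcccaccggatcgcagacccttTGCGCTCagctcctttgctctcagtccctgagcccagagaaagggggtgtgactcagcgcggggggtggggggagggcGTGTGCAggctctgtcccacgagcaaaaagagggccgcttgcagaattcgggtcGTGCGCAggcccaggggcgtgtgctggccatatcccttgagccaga
Slc39a10: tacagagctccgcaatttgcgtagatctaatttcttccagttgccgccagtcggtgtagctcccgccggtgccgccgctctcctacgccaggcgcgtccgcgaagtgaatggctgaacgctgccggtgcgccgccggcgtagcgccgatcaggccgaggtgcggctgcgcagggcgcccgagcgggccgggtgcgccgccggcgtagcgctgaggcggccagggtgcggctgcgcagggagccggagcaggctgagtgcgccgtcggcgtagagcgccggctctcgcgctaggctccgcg
The Mt1 window held 3 matches, at -23, 2 and 20 bases from the gene start, and the Mt2 window held 4, at -223, -128, -50 and 4 bases. The Slc30a1 window held 2. The Mtf1 window and both listed Slc39a10 windows held 0, which says only that these letters are not in those windows. The windows follow RefSeq starts, not those of the transcripts measured. The single-exon Mt1 model begins at 94179241, past its window, while the spliced model begins inside it at 94179082. The Slc39a10 window shown lies inside the transcript measured, which starts at 46854046. Bases just before the single-exon Mt1 start and that Slc39a10 start were not searched. Of 32851 mouse promoter windows of the same length, 25.7% held at least 1 match, 6.14% at least 2, 1.31% at least 3 and 0.295% at least 4.

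Both metallothionein genes lie on chromosome 8 (mm10, plus strand). The highest Mt2 transcript, ENSMUST00000034214, runs from 94172664 to 94173568 with 3 exons and 511 nucleotides. By the rule of highest mean count, Mt1 was represented by ENSMUST00000211807, a single-exon model of 1085 nucleotides from 94179241 to 94180325, 5672 bases past the end of Mt2. The spliced Mt1 transcript ENSMUST00000034215 (94179082 to 94180327, 3 exons, 549 nucleotides) had nearly the same counts, at 96.9% of the single-exon model in controls, 96.9% at 12000 fibers and 100.5% at 30000 fibers. Exons are shared by both models, and the single-exon model also spans bases between them. The near-equal counts leave little room for reads that lie only between the exons. How reads were assigned to models is not given, so shares of spliced and unspliced RNA were not measured. The longest run of bases common to the Mt1 and Mt2 transcripts was 20, and no other listed gene shared a 50-base stretch with either, so reads of the pair could be told apart over most of their length. Mtf1 was represented by ENSMUST00000030723 (chromosome 4, 124802549 to 124849800, plus strand, 11 exons, 7631 nucleotides). Slc39a10 was represented by ENSMUST00000027131 (chromosome 1, 46807544 to 46854046, minus strand, 10 exons, 5498 nucleotides).

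Transcript counts summed to between 21222034 and 28232472 in the control libraries, between 20103389 and 31119155 at 12000 fibers and between 6767842 and 9234052 at 30000 fibers. Mitochondrially encoded transcripts took 6.44% ± 1.1 (SD, n = 4) of counts in controls, 6.08% ± 0.725 at 12000 fibers and 15.6% ± 0.885 at 30000 fibers. Epithelial markers were all present, and their summed level, in counts per 1000000 counts (CPM), lay between 6589 and 7636 in controls, between 6748 and 7558 at 12000 fibers and between 3713 and 4409 at 30000 fibers. Of the 10 epithelial markers, 6 were called lower and 2 higher at 12000 fibers (edgeR, adjusted p under 0.05). At 30000 fibers 9 were called lower and 0 higher. Over all genes tested, 19.3% were called lower and 18.7% higher at 12000 fibers, and 33.4% and 32.2% at 30000 fibers. Fibroblast markers were high in this EpCAM-selected fraction as well. Of 11 such markers, 10 had a row (Thy1 did not), and all 10 were called higher at either fiber number. Their summed CPM ran from 8474 to 13064 in controls, from 15112 to 16507 at 12000 fibers and from 13948 to 16940 at 30000 fibers. Most of that sum was Fn1, with means of 9131, 13211 and 11215 CPM. From 12000 to 30000 fibers 6 of the 10 were called higher and 0 lower, against 28.3% and 27.1% of all genes. Among the 6 were Vim (mean 351 to 795 CPM) and Dcn (65.6 to 230 CPM). Of 9 immune markers, 5 had a row, with summed levels of 194 to 268, 205 to 318 and 345 to 523 CPM in the same order. Ptprc, Marco, Adgre1 and Cd3e had none. At 30000 fibers 3 of the 5 were called higher, 1 lower and 1 was not called. Lyz2 rose, with means of 108, 192 and 345 CPM, while Cd14 fell, with means of 97.3, 38.7 and 48.8 CPM. Of 5 endothelial markers, Pecam1 and Kdr had a row and summed to at most 4.02 CPM. In bulk RNA, fewer cells of a type and less RNA per cell cannot be told apart.

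Mt1 was higher at each step of fiber number in every mouse. In controls its level was 115.5, 145, 118 and 111 CPM in mice 1 to 4. At 12000 fibers it was 197, 202, 169 and 188.5 CPM, and at 30000 fibers it was 669.5, 619, 611 and 704 CPM. The 3 groups did not overlap, and all 4 same-mouse pairs went up at both steps. The means were 122 ± 15.5, 189 ± 14.5 and 651 ± 44 CPM (SD, n = 4 each). On the log2 scale Mt1 differed from control by 0.63 ± 0.08 (SE) at 12000 fibers and by 2.41 ± 0.09 at 30000 fibers, and the step from 12000 to 30000 fibers was 1.78 ± 0.08. Within single mice, the ratio to control ran from 1.39 to 1.71 at 12000 fibers and from 4.26 to 6.36 at 30000 fibers. Because Mt1 was selected on this pattern, these values are a description and carry no test.

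**Figure D1:**
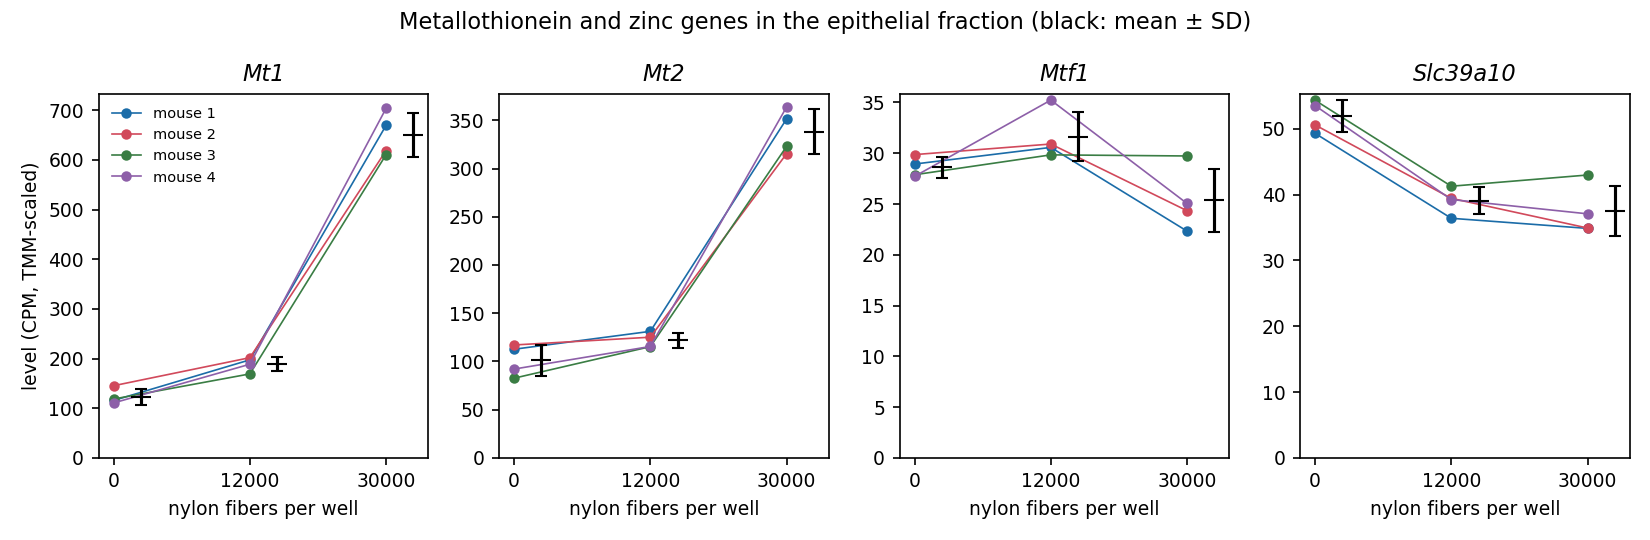
Level in CPM (vertical axis, from 0) against nylon fibers per well for Mt1, Mt2, Mtf1 and Slc39a10, each in its own panel. Points are single libraries, lines join the libraries of a mouse, and black bars give the mean ± SD of 4 mice; Mt1 and Mt2 are highest in all 4 libraries of 30000 fibers, while Slc39a10 is highest in the 4 controls.

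Mt2, the neighbouring metallothionein, was little above control at 12000 fibers and more than 3-fold higher at 30000 fibers. Its level in mice 1 to 4 was 113, 117, 82.6 and 92.1 CPM in controls. It was 131, 125, 115 and 115.5 CPM at 12000 fibers and 351, 315, 323 and 364 CPM at 30000 fibers. The control and 12000-fiber libraries overlapped, although Mt2 was higher in 4 of 4 same-mouse pairs, and the 30000-fiber libraries stood apart from both. The difference from control was 0.27 ± 0.09 (log2, SE) at 12000 fibers, with an adjusted p of 0.0293 from edgeR's quasi-likelihood test over 13759 genes. That call was lost without control mouse 3 (0.19, adjusted p = 0.0887), control mouse 4 (0.22, 0.0924), 12000-fiber mouse 1 (0.23, 0.0952) or 12000-fiber mouse 2 (0.26, 0.0647), and when only the 2 groups were fitted (0.28, 0.0508). At 30000 fibers Mt2 rose by 1.74 ± 0.09 (adjusted p = 1.61e-11, edgeR), a fold change of 3.34, and from 12000 to 30000 fibers it rose by 1.47 ± 0.09 (adjusted p = 2.24e-10).

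Within a library, Mt1 gained on Mt2 with fiber number. The ratio of Mt1 to Mt2 counts was 1.03, 1.24, 1.43 and 1.2 in the controls of mice 1 to 4. It was 1.5, 1.61, 1.47 and 1.63 at 12000 fibers and 1.91, 1.96, 1.89 and 1.93 at 30000 fibers. With these transcripts the groups did not overlap, and the SD went from 0.167 in controls to 0.0317 at 30000 fibers. The ratio uses Mt1, so it is given without a test. With the spliced Mt1 transcript the mean ratios were 1.19, 1.51 and 1.93, and mouse 3 was level at 1.41 in the control and at 12000 fibers, so that those groups overlapped.

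**Figure D2:**
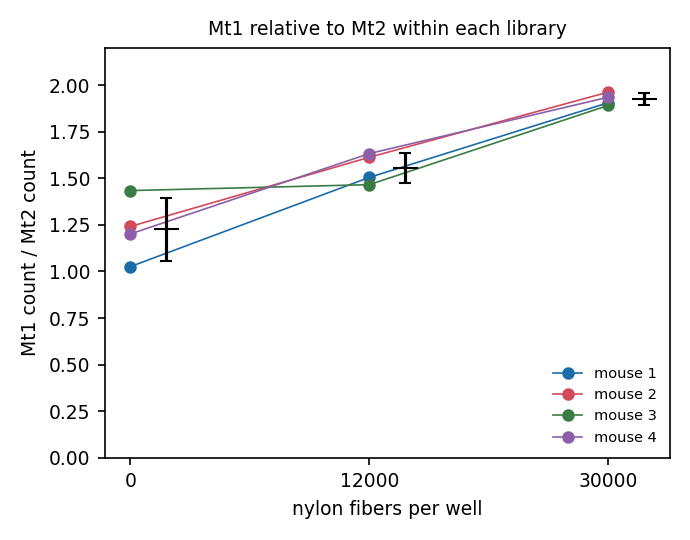
Ratio of Mt1 to Mt2 counts within each library (vertical axis, no unit, from 0) against nylon fibers per well. Points are libraries, lines join the libraries of a mouse and black bars give the mean ± SD of 4 mice; the means are 1.23, 1.55 and 1.92, and the groups do not overlap for the single-exon Mt1 model plotted here.

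Levels of different genes can be compared only per transcript length. Per kilobase, spliced Mt1 stood at 216 ± 26.4 CPM in controls, 334 ± 27.5 at 12000 fibers and 1191 ± 77.9 at 30000 fibers (SD, n = 4). Mt2 stood at 198 ± 32.2, 238 ± 15.2 and 662 ± 45.0 CPM per kilobase. At the length of the single-exon model Mt1 stood at 113 ± 14.3, 174 ± 13.4 and 600 ± 40.6. The order of the pair therefore depends on the Mt1 length used. At the spliced length Mt1 was within the spread of Mt2 in controls and above it in both fiber groups. At the single-exon length its mean was below that of Mt2 in each group. Both Mt1 models had nearly the same counts, so the single-exon length includes bases that added few counts. The spliced-length values are the closer guide to the Mt1 level. Mtf1 was at 3.75 ± 0.131, 4.15 ± 0.319 and 3.32 ± 0.410 CPM per kilobase, and Slc39a10 at 9.45 ± 0.433, 7.11 ± 0.366 and 6.81 ± 0.695. In controls, 98.9% of 13669 genes with a length had a lower level per kilobase than Mt2, against 53.9% for Slc39a10 and 30.7% for Mtf1. Of the counts summed over the 1 transcript kept per gene, Mt1 and Mt2 together took 0.0236% in controls, 0.0325% at 12000 fibers and 0.0895% at 30000 fibers.

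Mtf1, the regulator itself, did not pass the test against control at either fiber number. Its level in mice 1 to 4 was 28.9, 29.9, 27.9 and 27.7 CPM in controls and 30.6, 30.9, 29.8 and 35.2 CPM at 12000 fibers. At 30000 fibers it was 22.3, 24.3, 29.7 and 25.1 CPM, with mouse 3 inside the control range and the other 3 below it. The difference from control was 0.14 ± 0.09 (log2, SE; adjusted p = 0.208, edgeR) at 12000 fibers and -0.16 ± 0.10 (adjusted p = 0.162) at 30000 fibers. Without 30000-fiber mouse 3 the latter was -0.26 and passed (adjusted p = 0.0474), and scaling by library totals alone gave -0.39 (adjusted p = 0.0022). From 12000 to 30000 fibers Mtf1 fell by 0.31 ± 0.10 (adjusted p = 0.0145), a call lost without 30000-fiber mouse 1 (-0.26, adjusted p = 0.0537). Raw counts behind the 30000-fiber values were only 57 to 101 per library, against 214 to 341 in the other libraries.

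Slc39a10, the ZIP importer, fell at both fiber numbers and by about the same amount. Its level in mice 1 to 4 was 49.3, 50.6, 54.3 and 53.5 CPM in controls. It was 36.4, 39.4, 41.3 and 39.3 CPM at 12000 fibers and 34.9, 34.9, 43.0 and 37.1 CPM at 30000 fibers. Every fiber-exposed library was below every control. The difference from control was -0.41 ± 0.08 (log2, SE; adjusted p = 0.000235, edgeR) at 12000 fibers and -0.46 ± 0.09 (adjusted p = 8.29e-05) at 30000 fibers. The fiber groups overlapped and differed by -0.05 ± 0.09 (adjusted p = 0.704), or by -0.26 (adjusted p = 0.0168) with library totals alone.

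Against these members stands the background of a broad change. Of 13759 genes tested, 18.7% were called higher and 19.3% lower at 12000 fibers (edgeR, adjusted p under 0.05), 32.2% higher and 33.4% lower at 30000 fibers, and 28.3% higher and 27.1% lower between the fiber groups. Of the 3 members other than Mt1, 1 rose (Mt2), 1 fell (Slc39a10) and 1 was not called (Mtf1) in each comparison with control, so a call alone sets none of them apart. With scaling by library totals, the calls at 30000 fibers against control were 3237 higher and 6363 lower, in place of 4434 and 4592, and the median over all genes shifted from -0.03 to -0.25. Between the fiber groups they were 2765 and 5649, in place of 3893 and 3728, with a median of -0.22 in place of -0.01. On that scale each 30000-fiber difference in log2 is lower by about that shift. Mt1 and Mt2 were higher and Slc39a10 lower than control under either scaling.

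Transcript length moved with the 30000-fiber comparison, and the metallothioneins are short. At 30000 fibers the median difference from control was 1.52 (log2) over 259 genes of 400 to 700 nucleotides and -0.20 over 3240 genes of 4500 to 9000 nucleotides. At 12000 fibers the same medians were 0.09 and -0.01. A smoothed curve of the 30000-fiber differences on length passed through 1.80 at the 511 nucleotides of Mt2, 1.70 at the 549 nucleotides of spliced Mt1 and 0.70 at the 1085 nucleotides of the single-exon model. Mt2 lay on that curve, at -0.06 from it. Mt1 lay above it, by 0.71 at the spliced length and by 1.71 at the single-exon length. The single-exon length includes bases that added few counts, so the spliced-length value is the closer guide. Slc39a10 lay below the curve, at -0.27, and Mtf1 lay at 0.05 from it. Between the fiber groups, Mt2 was at -0.15 from the curve, Mtf1 at -0.12, Slc39a10 at 0.10 and Mt1 at 1.11, or at 0.25 for the spliced length. At 12000 fibers against control the curve was flat, and Mt1 kept 0.59 (0.57 at the spliced length), Mt2 0.21, Mtf1 0.15 and Slc39a10 -0.40. The part of length, of the lower depth and of the mitochondrial share of the 30000-fiber libraries in the metallothionein values was not tested, nor was that of the fibroblast and immune markers.

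**Figure D3:**
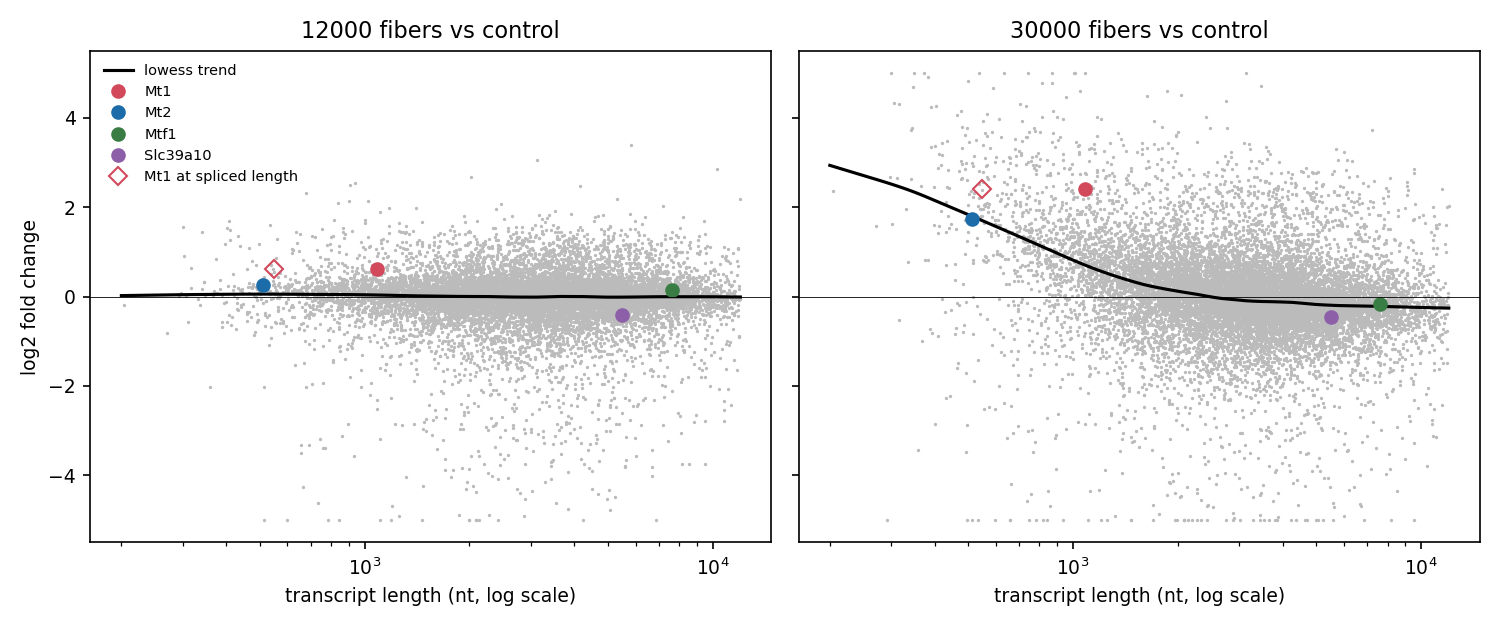
Log2 fold change against control (vertical axis) by transcript length in nucleotides (horizontal log axis, 200 to 12000) at 12000 and at 30000 fibers. Grey points are genes, with differences beyond 5 drawn at 5, and the black line is the smoothed curve. Coloured circles are the members, with Mt1 at its single-exon length, and the open diamond is Mt1 at its spliced length. At 30000 fibers Mt2 lies on the curve and Mt1 above it, by 0.71 at the spliced length.

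Other transcript models of the regulator and the importer, which end far from the 3′ end, are given by their share of the main model's count. ENSMUST00000138807, an Mtf1 model that ends 29573 bases before the end of the main one, had 11.4% in controls, 12.4% at 12000 fibers and 4.16% at 30000 fibers. ENSMUST00000147452, a retained-intron Mtf1 model at the 5′ end, had 12.8%, 12.5% and 10.4%. ENSMUST00000186852, a 5′ model of Slc39a10, had 7.24%, 6.2% and 4.56%. These shares rest on 0 to 11 counts per library at 30000 fibers. ENSMUST00000141226, a retained-intron model of Slc39a10 that ends 10058 bases before the main one, had more counts (42 to 65 per library at 30000 fibers) and stood at 49.5%, 45.6% and 47.5%. None of these shares was tested.

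The other zinc genes were taken as whole families. Of 35 listed genes, 26 had a row and were tested, Mt1 included. At 12000 fibers 8 were called higher, 4 lower and 14 were not called, with a median of 0.11 (log2) against -0.003 over all genes tested. At 30000 fibers 12 were higher, 8 lower and 6 not called, with a median of 0.08 against -0.03. Between the fiber groups 8 were higher, 8 lower and 10 not called, with a median of -0.13 against -0.01. Among all genes tested, 18.7% were called higher and 19.3% lower at 12000 fibers, and 32.2% and 33.4% at 30000 fibers. Between the fiber groups those shares were 28.3% and 27.1%. With library totals alone the zinc genes split into 9 higher and 12 lower at 30000 fibers, and 5 and 14 between the fiber groups. Without Mt1, which was selected on its rise, the counts of higher genes were 7, 11 and 7 and the medians 0.10, -0.01 and -0.15, the second of them near that of all genes.

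The ZIP importers split in direction. Of 14 listed, 12 had a row. At 12000 fibers 4 rose, 3 fell and 5 were not called, and at 30000 fibers 5 rose, 6 fell and 1 was not called. Over all genes the shares called higher and lower were 18.7% and 19.3% at 12000 fibers and 32.2% and 33.4% at 30000 fibers. From 12000 to 30000 fibers 2 rose and 5 fell, against 28.3% and 27.1% of all genes. The largest fall was in Slc39a4, the importer that takes up dietary zinc in the gut and is known to be lost from the cell surface when zinc is plentiful. Slc39a4 was at 154, 133, 106 and 137 CPM in the controls of mice 1 to 4, at 71.9, 71.8, 66.4 and 58.9 CPM at 12000 fibers and at 34.1, 32.1, 39.4 and 33.1 CPM at 30000 fibers. The 3 groups did not overlap, and the difference from control was -0.98 ± 0.10 (SE; adjusted p = 5.07e-07, edgeR) at 12000 fibers and -1.93 ± 0.12 (adjusted p = 8.09e-11) at 30000 fibers. With the counts of all its transcripts summed, the step between the fiber groups was -0.61 in place of -0.95.

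Slc39a6, Slc39a8, Slc39a14 and Slc39a2, importers of the plasma membrane, were called higher at both fiber numbers. Slc39a6 rose by 0.63 ± 0.09 (log2, SE; adjusted p = 1.21e-05, edgeR) at 12000 fibers and by 0.92 ± 0.09 (adjusted p = 4.45e-08) at 30000 fibers. Its mean level was 35.2 ± 3.61 CPM in controls, 54.2 ± 1.84 at 12000 fibers and 66.5 ± 7.90 at 30000 fibers (SD, n = 4). Its further rise of 0.30 between the fiber groups was lost without 30000-fiber mouse 3 (0.23, adjusted p = 0.0566) and with library totals alone (0.09, 0.42). Slc39a8, which also carries manganese and cadmium, rose by 0.84 ± 0.15 (adjusted p = 0.000286) at 12000 fibers. Its 0.48 ± 0.17 at 30000 fibers (adjusted p = 0.0196) was lost without 30000-fiber mouse 1 (0.37, 0.0794) or mouse 2 (0.46, 0.054) and with library totals alone (0.26, 0.19). Slc39a14, a zinc, iron and manganese importer induced by interleukin-6, rose by 0.51 ± 0.11 (adjusted p = 0.000847) at 12000 fibers. Its 0.32 ± 0.12 at 30000 fibers (adjusted p = 0.0271) was lost without control mouse 1 (0.20, 0.0854), without 30000-fiber mouse 2 (0.31, 0.0544) or mouse 4 (0.27, 0.0909), with summed transcripts (0.14, 0.365) and with library totals alone (0.10, 0.501). Slc39a2, at 3.29 ± 0.583 CPM in controls, rose by 0.80 ± 0.19 (adjusted p = 0.00233) at 12000 fibers, and its 0.70 ± 0.23 at 30000 fibers (adjusted p = 0.0118) was lost without 30000-fiber mouse 4 (0.55, 0.0677) and with library totals alone (0.48, 0.0698).

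Importers of internal membranes differed mainly at 30000 fibers. Slc39a7, which releases zinc from the endoplasmic reticulum, stood at 22.3 ± 2.63 CPM in controls, 24.8 ± 1.34 at 12000 fibers and 9.79 ± 1.60 at 30000 fibers. It differed by 0.16 ± 0.10 (adjusted p = 0.251, edgeR) at 12000 fibers and fell by 1.2 ± 0.14 (adjusted p = 3.68e-07) at 30000 fibers. Slc39a9, a Golgi importer, fell by 0.79 ± 0.10 at 30000 fibers (adjusted p = 8.55e-07). Its -0.23 at 12000 fibers (adjusted p = 0.0418) missed the threshold without any of 6 of the 8 libraries, namely control mice 2 and 4 and each 12000-fiber mouse (-0.24 to -0.18, adjusted p from 0.0648 to 0.145), with summed transcripts (0.0641) and with DESeq2 (0.0516). Slc39a13, an importer of vesicles and the secretory pathway, rose by 0.54 ± 0.10 at 30000 fibers (adjusted p = 9.97e-05). With summed transcripts that value was 0.31. Its rise of 0.36 between the fiber groups was 0.16 (adjusted p = 0.183) with library totals alone and 0.14 (0.251) with summed transcripts.

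Slc39a1 and Slc39a3, importers of the cell surface, fell at 30000 fibers and were not called at 12000 fibers. Slc39a1 was at -0.31 ± 0.07 (adjusted p = 0.000622, edgeR), or -0.17 (0.0665) with summed transcripts. Slc39a3 was at -0.36 ± 0.13 (adjusted p = 0.0237), and that call was lost without control mouse 3 (-0.31, 0.0602) or 30000-fiber mouse 2 (-0.25, 0.11) and with summed transcripts (-0.25, 0.0849). Slc39a11 passed in no comparison, at 0.09, -0.06 and -0.15.

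Of the 10 listed ZnT exporters, 5 had a row, and at 12000 fibers 0 of the 5 passed in edgeR. At 30000 fibers 1 rose and 1 fell. For comparison, 18.7% of all genes were called higher and 19.3% lower at 12000 fibers, and 32.2% and 33.4% at 30000 fibers. Slc30a6, which loads zinc into the Golgi together with Slc30a5, stood at 12.6 ± 0.604 CPM in controls, 13.5 ± 0.968 at 12000 fibers and 21.5 ± 1.38 at 30000 fibers. It rose by 0.78 ± 0.11 (log2, SE; adjusted p = 5.83e-06, edgeR) at 30000 fibers. Slc30a5 was at -0.19 ± 0.08 there (adjusted p = 0.0324), and that call was lost without control mouse 2 (-0.16, 0.0909), 30000-fiber mouse 3 (-0.15, 0.125) or 30000-fiber mouse 4 (-0.18, 0.0773), with summed transcripts (0.0755), with only the 2 groups fitted (0.061) and with DESeq2 (0.0523). Slc30a9, a mitochondrial exporter, was at -0.18 ± 0.07 between the fiber groups (adjusted p = 0.0365), a call lost without 6 of those 8 libraries, namely each 12000-fiber mouse and 30000-fiber mice 3 and 4 (adjusted p from 0.0549 to 0.118), and without the filter on low counts (0.0504).

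The last list held 7 genes of zinc sensing and other metal-responsive genes, Mtf1 among them. At 12000 fibers 2 rose and 1 fell, and at 30000 fibers 4 rose and 1 fell. The all-gene shares called higher and lower were 18.7% and 19.3% at 12000 fibers, and 32.2% and 33.4% at 30000 fibers. Hmox1, heme oxygenase of the oxidative stress response, was at 67.1, 102, 119 and 98.7 CPM in the controls of mice 1 to 4. It was at 208, 194, 207 and 181 CPM at 12000 fibers and at 143, 168, 140 and 142 CPM at 30000 fibers, so it was highest at the lower fiber number. Hmox1 rose by 1.03 ± 0.13 (log2, SE; adjusted p = 3.81e-05, edgeR) and by 0.62 ± 0.14 (adjusted p = 0.00126). Its fall of 0.41 between the fiber groups (adjusted p = 0.0182) was lost without 30000-fiber mouse 3 (-0.39, 0.0523) or mouse 4 (-0.39, 0.0515). That call was also lost with summed transcripts (-0.27, 0.0799). Tmem163, a zinc efflux protein of vesicles, rose by 1.32 ± 0.25 (adjusted p = 0.00102) and by 1.51 ± 0.29 (adjusted p = 0.00034). Ndrg1, known for its response to hypoxia and metals, fell by 1.15 ± 0.16 (adjusted p = 0.000206) and by 1.57 ± 0.18 (adjusted p = 1.15e-05). Between the fiber groups Ndrg1 was at -0.41 (adjusted p = 0.0761) and was not called. It passed with the mouse as a replicate block (-0.43, adjusted p = 0.00339) and with library totals alone (-0.62, 0.0124). Summed transcripts (-0.52, 0.00862), only the 2 groups fitted (-0.40, 0.0351) and DESeq2 (-0.42, 0.0238) also gave a call.

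Gclc, which catalyses the first step of glutathione synthesis, and Selenoh, a selenoprotein of the nucleus, were called at 30000 fibers and not at 12000 fibers. Gclc rose by 0.60 ± 0.11 (log2, SE; adjusted p = 8.25e-05, edgeR) at 30000 fibers, after 0.10 ± 0.10 (adjusted p = 0.502) at 12000 fibers. Selenoh, with a transcript of 747 nucleotides, rose by 1.45 ± 0.11 (adjusted p = 1.21e-09), or by 0.72 with summed transcripts, after -0.03 ± 0.11 (adjusted p = 0.85) at 12000 fibers. With the length curve removed, its value at 30000 fibers was 0.20. Mtf2 shares its name pattern with Mtf1 but encodes a Polycomb accessory protein. It was at 0.27 ± 0.09 between the fiber groups (adjusted p = 0.0137), a call lost without 30000-fiber mouse 4 (0.18, 0.0863), while summed transcripts gave -0.03 (0.792).

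**Figure D4:**
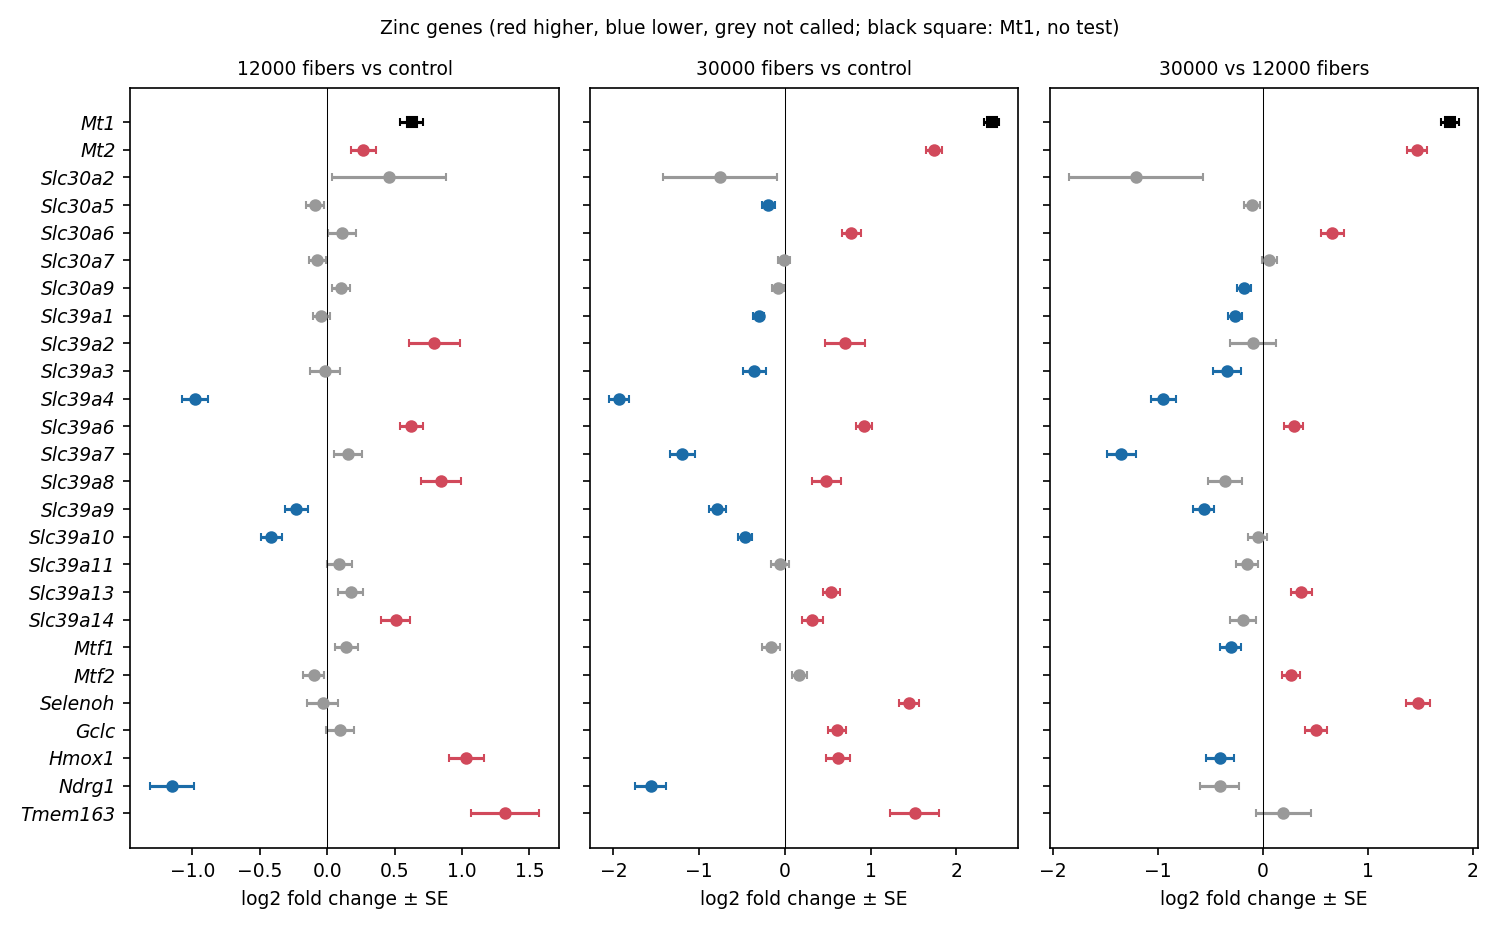
Log2 fold change ± SE (horizontal axis) of the 26 tested zinc genes in the 3 comparisons. Red is called higher, blue called lower and grey not called (edgeR, adjusted p under 0.05), and the black square is Mt1, shown without a test; Slc39a4 lies furthest below 0 at 30000 fibers against control and Mt1 furthest above.

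Each list of genes tied to another known inducer of metallothioneins held genes called higher and genes called lower. The counts stand against all-gene shares of 18.7% higher and 19.3% lower at 12000 fibers and 32.2% and 33.4% at 30000 fibers. At 30000 fibers more genes rose than fell in the copper, glucocorticoid and NRF2 lists. Fewer rose than fell in the interleukin-6 and STAT3 list. The part of these inducers in the metallothionein values was not tested. Of 12 copper-handling genes, 2 rose and 2 fell at 12000 fibers, and 7 rose and 3 fell at 30000 fibers. The copper chaperones Atox1 and Cox17 rose by 1.97 ± 0.10 (log2, SE; adjusted p = 2.74e-12, edgeR) and 1.99 ± 0.11 (adjusted p = 6.67e-12) at 30000 fibers. The Atox1 transcript has 541 nucleotides, within the class of 400 to 700 nucleotides whose median there was 1.52. With the length curve removed, Atox1 was at 0.25. Cox17 was represented by its highest-count transcript, of 3690 nucleotides, and the lengths of its other models were not looked at. The metalloreductase gene Steap4 fell by 3.08 ± 0.20 (adjusted p = 3.79e-09) at 12000 fibers and by 4.26 ± 0.31 (adjusted p = 3.09e-10) at 30000 fibers, and Slc31a1, the copper importer, fell by 0.67 ± 0.07 (adjusted p = 8.48e-07) at 12000 fibers. Ccs, the copper chaperone of superoxide dismutase, rose by 0.41 ± 0.09 (adjusted p = 0.00153) at 12000 fibers.

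Of 10 tested glucocorticoid targets, 3 rose and 1 fell at 12000 fibers, and 5 rose and 2 fell at 30000 fibers. Pdk4, Fkbp5 and Sgk1 rose by 0.49 ± 0.11 (adjusted p = 0.002, edgeR), 0.59 ± 0.14 (0.00246) and 0.36 ± 0.09 (0.00275) at 12000 fibers. At 30000 fibers Pdk4 rose by 1.49 ± 0.12 (1.78e-09) and Sgk1 by 1.03 ± 0.09 (4.54e-09), while Nr3c1, the glucocorticoid receptor itself, fell by 0.65 ± 0.08 (3.78e-07). Of 11 genes of the NRF2 oxidative stress pathway, 3 rose and 3 fell at 12000 fibers, and 6 rose and 2 fell at 30000 fibers. Srxn1 and Txnrd1 rose by 0.76 ± 0.08 (adjusted p = 8.19e-07) and 0.69 ± 0.08 (2.45e-06) at 12000 fibers, while Gsr, glutathione reductase, fell by 0.80 ± 0.08 (2.05e-07) there and by 1.63 ± 0.09 (4.4e-12) at 30000 fibers. Nfe2l2 and Gclm rose by 0.56 ± 0.06 (1.09e-07) and 0.64 ± 0.07 (2.87e-07) at 30000 fibers. Of 9 tested interleukin-6 and STAT3 genes, 1 rose and 3 fell at 12000 fibers, and 1 rose and 4 fell at 30000 fibers. At 12000 fibers Lif rose by 0.44 ± 0.08 (0.000177), and Osmr and Bcl3 fell by 0.50 ± 0.11 (0.00143) and 0.47 ± 0.11 (0.00163). At 30000 fibers Junb and Stat3 fell by 0.66 ± 0.06 (2.01e-08) and 0.54 ± 0.06 (1.88e-07), and Il6ra rose by 1.02 ± 0.14 (1.94e-06).

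By Pearson r of log2 CPM over the 12 libraries, the genes with a pattern most like Mt1 among 12011 were Selenof (0.995), Tbcb (0.995), Ubb (0.993), Plekha3 (0.993) and Elob (0.993). Mt2 was at rank 35 (0.986), Mtf1 at rank 8058 (-0.59) and Slc39a10 at rank 9109 (-0.74). All of these values share the 3 dose groups and the lower depth of the 30000-fiber libraries, and they describe likeness alone. After removing each group's mean, the highest values were those of Chrnb1 (0.884), Igsf5 (0.878), Bex2 (0.876), Dnajc22 (0.872) and Otulin (0.86), with Mt2 at rank 208 (0.653), Mtf1 at rank 5833 (0.0185) and Slc39a10 at rank 10652 (-0.396).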

How the data were processed

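RNA was sequenced from the epithelial fraction of 12 organoid cultures. The authors' tools, per the submitters' processing notes, were HISAT2 2.1.0 and cutadapt 1.12 besides bcl2fastq and FastQC, with build mm10. How transcripts were counted, with which annotation and strand setting, and whether molecular barcodes were used was not given in the sources used here. Deposited were the authors' raw counts per Ensembl transcript, neither normalized nor pooled. Of 71081 entries with an identifier, 70518 were found in GENCODE M21, which gave positions and lengths. The fibroblast columns held 107814 entries, 36733 past the last identifier, and did not follow the identifiers (Spearman rho 0.0467 with the epithelial columns), so they are not used here. The number of columns of per-sample values left without a sample was 0.

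Each gene was represented by its highest transcript, so that no read counts more than 1 time. All 12 libraries were fitted together in edgeR 4.0.16 (R 4.3.3) with filterByExpr, TMM scaling and the quasi-likelihood F test, with 9 residual degrees of freedom and Benjamini-Hochberg adjustment over 13759 genes. Genes with an adjusted p under 0.05 were called changed. The fitting steps were tested on simulated data. CPM are counts per 1000000 counts of the TMM-scaled total, which was 2552480 to 11152925. Standard errors come from the F statistic. The length curve is a lowess with a span of 0.3 (statsmodels 0.14.6). Promoters were taken from RefSeq tables (GRCm38.p6), where all 5 members matched by symbol.

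Groups came from the sample titles. Same-numbered libraries come from the same mouse per the labels, and their deviations from group means had a median correlation of 0.105 (12 pairs), against -0.0291 for different mice (36 pairs). The members and gene lists were chosen with earlier results of these data known. The text names all members, each zinc gene called in a comparison, up to 3 genes of each other list by smallest p (at 12000 and at 30000 fibers), and the 5 genes most like Mt1 by each measure. Alternatives were other scalings, no filter, summed or second transcripts, a replicate block, DESeq2 1.42.0, fits of the 2 groups compared, each library left out and removal of the length curve. Reading that curve at the spliced length of Mt1 was chosen after seeing the data.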

Additional observations from a re-analysis of the deposited data

Results flagged for a closer look

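Of 138 groups of 4 libraries checked gene by gene (Dixon's criterion on log2 CPM), 6 had a library far from the other 3, and chance alone marks about 1 in 20 groups. None was a group of Mt1, Mt2, Mtf1 or Slc39a10. Slc30a5 was at 55.4 CPM in control mouse 2 (others 50.2 to 50.7), Slc39a14 at 20.1 CPM in control mouse 1 (others 28.5 to 29.9) and Slc39a1 at 137 CPM in 12000-fiber mouse 1 (others 115 to 118). At 30000 fibers Slc39a3 was at 12.0 CPM in mouse 2 (others 16.7 to 17.1), Hmox1 at 168 CPM in mouse 2 (others 140 to 143) and Stat3 at 141 CPM in mouse 4 (others 134 to 135). Calls of Slc30a5, Slc39a3 and Slc39a14 at 30000 fibers were lost without the library named here.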

How the results depend on the processing

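The counts of genes changed stayed within 1.5 times under every setting run: 4441 to 5521 at 12000 fibers, 8445 to 9600 at 30000 fibers and 7067 to 8414 between them, and for zinc genes 10 to 12, 16 to 21 and 13 to 19. With the mouse as a replicate block (6 residual degrees of freedom) they were 5521, 9141 and 7769, and 12, 20 and 17 for zinc genes. The block changed the call of Ndrg1 between the fiber groups and no other call among the genes named with a test. Among called values, 3 changed sign. With the length curve removed, Mt2 was at -0.061 at 30000 fibers against control and at -0.15 between the fiber groups, since the curve at its length was as high as its own change. With summed transcripts, Mtf2 was at -0.031 between the fiber groups, and the cause was not tested. Of the other values of single genes, 56 lost their call, 35 of them on leaving out a library, 21 gained one and 29 without a test moved by more than the replicate SD. At 30000 fibers Mtf1 and Slc39a10 rest on 57 to 146 counts per library, and other zinc genes on fewer, with 2 to 4 for Slc30a2, 10 to 21 for Slc39a2 and 26 to 33 for Slc39a7. Values that were not called also changed sign in some settings, as those of Mtf1 at 30000 fibers and Slc39a10 between the fiber groups did with the length curve removed.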
